A study of Mus musculus with 30 samples.

Results

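The change of the 56Fe effect between 4 and 9 months after irradiation was measured in mouse liver, over all genes, from 12 of the 30 RNA-seq libraries of the series. The 12 libraries were those of 4 groups of 3 livers. The groups were irradiated livers at month 9 (270 days), control livers at month 9, irradiated livers at month 4 (120 days) and control livers at month 4. All mice were males of the strain labelled C57BL16, and left liver lobes were sampled. The dose of 56Fe was 0.2 Gy, at an energy of 600 MeV/n, and control mice were not irradiated. The labels call the 3 livers of a group biological replicates, and each liver was sampled once, so months 4 and 9 are different mice. Total counts were 13359559 to 20215995 per library.

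56Fe ions are heavy charged particles, a component of space radiation that deposits its energy in dense tracks. For each gene, the 56Fe effect at a month is the log2 ratio of irradiated over control livers of that month. The measure of change is the effect at month 9 minus the effect at month 4, so a positive value means a higher effect at month 9. Levels are CPM, each gene's count relative to the library's total, scaled by library composition factors. CPM are not divided by transcript length, so they compare libraries and not genes. A gene was called when its adjusted p from edgeR's quasi-likelihood test, with Benjamini-Hochberg adjustment over 19685 genes, was under 0.05. Values after ± beside a log2 value are standard errors of the fit, and those beside a mean are SD with n = 3.

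Much of what follows concerns protein folding. Cells hold folding helpers called chaperones in the cytosol and in the endoplasmic reticulum, the compartment where secreted proteins are made. Cytosolic chaperone genes are induced by the heat shock factor Hsf1. Genes of the endoplasmic reticulum chaperones are induced by the unfolded protein response, whose sensors are Eif2ak3 (PERK), Ern1 (IRE1) and Atf6. Hepatocytes secrete most plasma proteins and carry a large endoplasmic reticulum.

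The 56Fe effect differed between months 9 and 4 for 804 genes, 4.08% of those tested. It was higher at month 9 for 547 (2.78%) and lower at month 9 for 257 (1.31%). Another scaling of the libraries moved this split: 68.0% of the calls were higher with TMM factors, against 79.7% of 970 calls with RLE factors and 51.3% of 836 with upper quartile factors. The 56Fe effect alone was called for 326 genes at month 9 (1.66%), 228 higher (1.16%) and 98 lower (0.498%). At month 4 it was called for 708 (3.6%), 359 higher (1.82%) and 349 lower (1.77%). The split at month 4 turned with the scaling: it was 308 higher and 496 lower with RLE factors, and 558 higher and 287 lower with upper quartile factors. Of the 804 genes, 168 were also called at month 9, 287 at month 4, 15 at both and 364 at neither.

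The effect had opposite signs at months 9 and 4 for 788 of the 804 genes. They were called for the difference between these effects, which favours opposite signs, so this count and the medians below describe the calls and do not test a reversal. The 547 higher genes had a median effect of 0.42 at month 9 and -0.50 at month 4. The 257 lower genes had a median effect of -0.51 at month 9 and 0.48 at month 4. Most changes were small in size: 442 genes differed by less than 2-fold, 301 by 2 to 4-fold, 52 by 4 to 16-fold and 9 by more. The scatter plot of both effects shows the called genes at the upper left and the lower right.

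Each arm was also compared between the months. Irradiated livers of month 9 against those of month 4 gave 736 called genes, 469 higher and 267 lower. Control livers of month 9 against those of month 4 gave 0 called genes with edgeR, and 1361 genes had an unadjusted p under 0.05. The lack of calls does not show that control livers were unchanged. All 3 irradiated livers of month 4 lay below the other 9 libraries for 171 of the 547 higher genes (31.3%, against 3.93% of all genes). They lay above the other 9 for 74 of the 257 lower genes (28.8%, against 3.14% of all genes). Irradiated livers of month 9 lay above the other 9 for 23 of the higher genes (4.2%, against 1% of all genes) and below them for 38 of the lower genes (14.8%, against 1.56%). Control livers of month 4 lay above the other 9 for 32 of the higher genes (5.85%, against 1.37%). They lay below the other 9 for 8 of the lower genes (3.11%, against 0.787%). Control livers of month 9 lay below the other 9 for 4 of the higher genes (0.731%, against 0.406%). They lay above the other 9 for 9 of the lower genes (3.5%, against 0.808%). The arms did not overlap at month 4 for 651 of the 804 genes (81%, against 30.2% of all genes), and did not overlap at month 9 for 465 (57.8%, against 18.2%). These shares too describe genes that were called from the same values.

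Several libraries stood apart within their groups. Replicate 2 of the irradiated livers at month 9 was the lowest of its 3 libraries for 78.2% of the higher genes, and the highest for 75.9% of the lower genes. Over all genes tested it was the lowest for 34.5% and the highest for 34.7%. Replicate 3 of the control livers at month 4 was the highest of its 3 for 75.1% of the higher genes, against 37.2% of all genes. Without replicate 2 of the irradiated livers at month 9 there were 1762 calls. Without any other single library the count lay between 253 and 697, the lowest without replicate 2 of the irradiated livers at month 4. Leaving out both replicate 2 of the irradiated livers at month 9 and replicate 3 of the control livers at month 4, a choice made after seeing the data, gave 1239 calls, of which 707 were among the 804.

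The share of counts in Gm26917, a long non-coding RNA annotated on chromosome 17, was higher in irradiated than in control livers at month 4. It was 0.520 ± 0.0626% in irradiated and 0.500 ± 0.0416% in control livers at month 9, and 0.916 ± 0.0808% in irradiated and 0.490 ± 0.0197% in control livers at month 4 (SD, n = 3). With the level of Gm26917 as a covariate, 302 genes had an adjusted p under 0.05 for the change, of which 258 were among the 804. With the same covariate the calls at month 4 numbered 1 instead of 708, and those at month 9 numbered 276 instead of 326. At month 12 the order was opposite, with 0.759, 1.04 and 0.81% in irradiated and 1.33, 1.58 and 2.04% in control livers. At months 1 and 2 all irradiated livers lay above all controls. The part of Gm26917 in the results was not tested further.

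Markers of the labelled tissue were high in all 12 libraries: 9 hepatocyte genes summed to 82351 to 86556 CPM in irradiated and 74734 to 93419 CPM in control livers at month 9, and to 68717 to 82910 CPM in irradiated and 82769 to 92998 CPM in control livers at month 4. None of the 11 marker lists of cell types held a called gene in the change of the effect, where 4.08% of all genes were called. Changes were positive for all 10 Kupffer cell and macrophage markers (median 0.84) and for 6 of 8 neutrophil markers (median 1.26). They were negative for 8 of 10 endothelial markers (median -0.36) and for 7 of 8 B cell markers (median -0.67). Summed endothelial markers (10 of 10 measured) were lower in irradiated livers at month 9, 432 to 558 CPM in irradiated and 627 to 700 CPM in control livers, and overlapped at month 4, 526 to 596 CPM in irradiated and 513 to 650 CPM in control livers. Summed stellate cell and fibroblast markers (10 of 10) lay at 469 to 537 CPM in irradiated and 611 to 684 CPM in control livers at month 9, without overlap, and at 479 to 560 CPM in irradiated and 534 to 590 CPM in control livers at month 4. Summed erythroid markers (6 of 7) did not overlap at either month, at 197 to 216 CPM in irradiated and 231 to 281 CPM in control livers at month 9, and 205 to 262 CPM in irradiated and 319 to 436 CPM in control livers at month 4. Summed cholangiocyte markers (7 of 7 measured) ranged over 30.5 to 133 CPM in irradiated and 25.3 to 38.3 CPM in control livers at month 9, and over 22 to 37.9 CPM in irradiated and 24.8 to 43.3 CPM in control livers at month 4. Summed Kupffer cell markers (10 of 10 measured) ranged over 336 to 904 CPM in irradiated and 327 to 542 CPM in control livers at month 9, and over 250 to 381 CPM in irradiated and 361 to 476 CPM in control livers at month 4. Summed neutrophil markers (8 of 10 measured) ranged over 2.25 to 12.9 CPM in irradiated and 2.15 to 2.47 CPM in control livers at month 9, and over 1.61 to 3.09 CPM in irradiated and 1.71 to 9.71 CPM in control livers at month 4. Their part in the results was not tested, and in whole liver fewer cells of a type and less RNA per cell cannot be told apart.

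Heat shock proteins were the list with the most called members. Of 15 measured members of the heat shock list, 12 had a higher 56Fe effect at month 9, none had a lower one, and all 15 changes were positive. Of all genes tested 2.78% were called higher. The median change of the list was 2.07, against -0.05 over all genes tested. The list's median effect was 0.95 at month 9 and -0.84 at month 4. From month 4 to month 9 the list median moved by 1.47 in irradiated and by -0.51 in control livers. At month 9, 5 members were called higher (1.16% of all genes were), and at month 4, 4 members were called lower (1.77% of all genes were). The month 9 calls rest on single libraries: over all genes they numbered 326, and 0 without replicate 1 of the irradiated livers at month 9 (edgeR, 2172 with an unadjusted p under 0.05), and 16 to 39 without replicate 3 of the irradiated livers or any 1 control liver of that month. Without replicate 2 of the irradiated livers at month 9 they numbered 1439, and with the 12 libraries fitted alone 10.

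Hspa1b encodes the stress-induced Hsp70 of the cytosol (chromosome 17, 34956436 to 34959238, minus strand, on GRCm38). It had 87.6, 17.3 and 90.4 CPM in irradiated and 17.7, 8.9 and 8.33 CPM in control livers at month 9, and 6.72, 5.83 and 11.2 CPM in irradiated and 28.2, 25.7 and 74.9 CPM in control livers at month 4. At month 9, 2 irradiated livers stood far above the controls and replicate 2 lay among them; at month 4 all irradiated livers lay below all controls. The change was 4.91 ± 0.88, a 30.1-fold difference, the largest among the named genes that were higher (edgeR adjusted p = 0.00583). The near-identical copy Hspa1a was under 1 CPM in every one of the 12 libraries and was called as well. Reads shared by the pair could be counted for neither or either copy, so both values are uncertain.

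Dnajb1 and Dnaja1 encode J-domain co-chaperones, which hand unfolded clients to Hsp70. Dnajb1 had 247, 31.6 and 205 CPM in irradiated and 31.5, 24.6 and 24.9 CPM in control livers at month 9, and 18.3, 21.3 and 26.6 CPM in irradiated and 38.1, 30.8 and 42.5 CPM in control livers at month 4. Again replicate 2 of the irradiated livers at month 9 lay beside the controls. The change for Dnajb1 was 3.33 ± 0.63 (adjusted p = 0.0076), and its effect was called at month 9 (2.58 ± 0.45, adjusted p = 0.0122) but not at month 4 (-0.75 ± 0.44, adjusted p = 0.376). Dnaja1 had 708, 237 and 612 CPM in irradiated and 157, 167 and 161 CPM in control livers at month 9, and 116, 135 and 175 CPM in irradiated and 192, 200 and 302 CPM in control livers at month 4. The arms of Dnaja1 did not overlap at either month, and its change was 2.39 ± 0.37 (adjusted p = 0.00259). Dnaja1 overlaps Smu1 on the opposite strand, and the strand setting of the counts is not stated, so a share of its reads could belong to Smu1.

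Hspa8 encodes the constitutive Hsc70, which folds proteins in unstressed cells. It had 1746, 881 and 1259 CPM in irradiated and 720, 690 and 608 CPM in control livers at month 9, and 373, 532 and 767 CPM in irradiated and 1081, 1006 and 1553 CPM in control livers at month 4. The arms did not overlap at month 9, where irradiated livers were higher, nor at month 4, where they were lower. The change was 2.07 ± 0.36 (adjusted p = 0.00259).

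Hsph1 encodes Hsp110, which exchanges the nucleotide of Hsp70. It had 224, 97.7 and 292 CPM in irradiated and 63.5, 40.3 and 51.9 CPM in control livers at month 9, and 33.8, 46.7 and 91.5 CPM in irradiated and 116, 80.1 and 261 CPM in control livers at month 4. Its arms overlapped at month 4 only. The change was 3.38 ± 0.63 (adjusted p = 0.00686).

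The remaining called members were Hsp90aa1, the stress-induced Hsp90, at 2.48 (adjusted p = 0.0118), the co-chaperone Bag3 at 2.20 (0.0105), the Hsp110 relatives Hspa4l at 1.66 (0.0076) and Hspa4 at 0.82 (0.0237), and the pair Hspe1 at 1.57 (0.0294) and Hspd1 at 0.96 (0.0365). Hspd1 and Hspe1 form the chaperonin of the mitochondrion, not of the cytosol. The members not called were Hspb1, a small heat shock protein, at 1.96 (0.0844), the constitutive Hsp90ab1 at 0.90 (0.114), and Hsf1, the transcription factor itself, at 0.10 (0.899). Hsf1 had 16.1, 7.67 and 10.7 CPM in irradiated and 10.3, 8.96 and 10.7 CPM in control livers at month 9, and 12.6, 10.8 and 9.59 CPM in irradiated and 10.2, 8.67 and 12.1 CPM in control livers at month 4. Its arms overlapped at both months.

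Across 24 other ways of fitting or choosing libraries, between 7 and 13 of the heat shock genes were called higher, and the list median stayed between 1.70 and 2.40. The count of 7 came with the Gm26917 covariate. It was 8 without replicate 3 of the irradiated livers at month 9, replicate 2 of the control livers at month 9, replicate 1 or 2 of the irradiated livers at month 4, or replicate 3 of the control livers at month 4. Hspa1b, Hspa8 and Dnaja1 were called in all 24. Hsph1 and Dnajb1 were called in 23 and not with the 12 libraries fitted alone (edgeR adjusted p = 0.0563 and 0.0674).

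**Figure D1:**
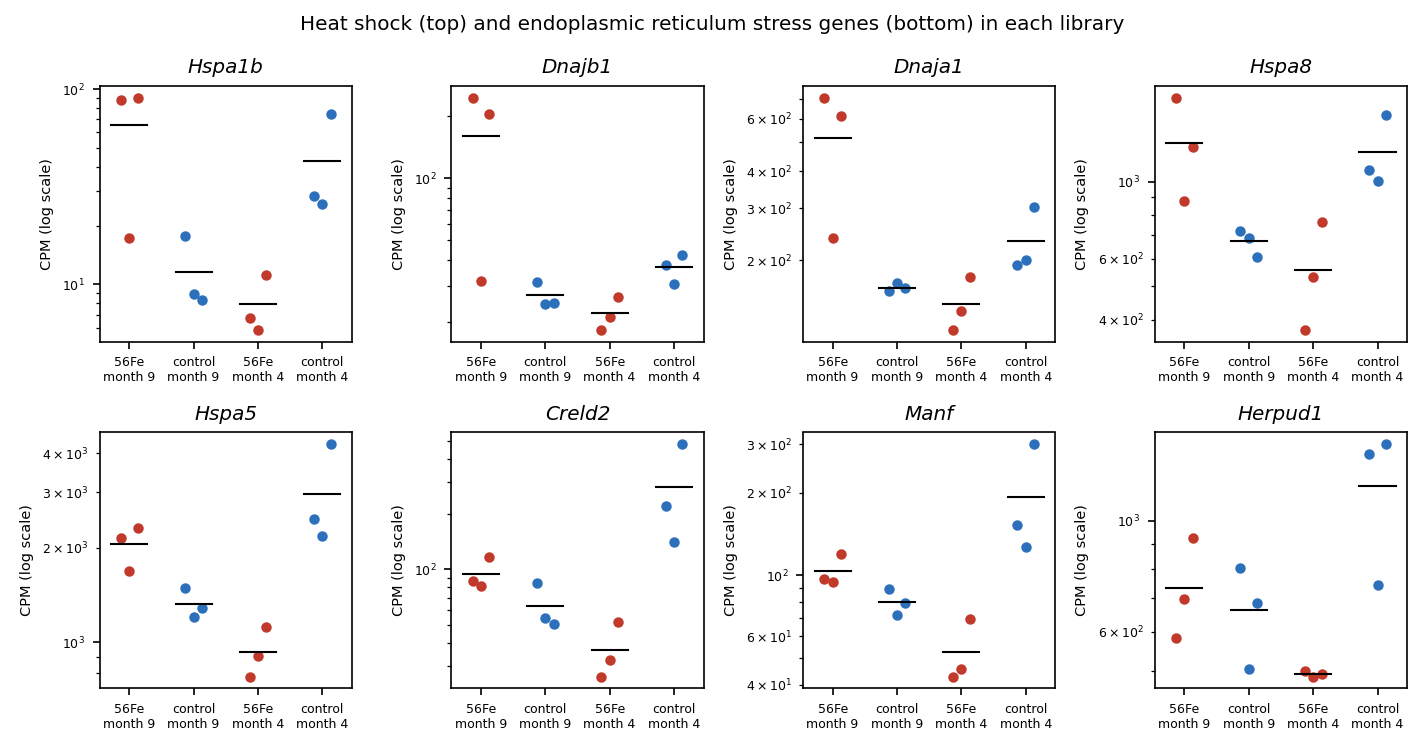
Points are libraries and bars are group means, in CPM on log axes, for 4 heat shock genes (top) and 4 endoplasmic reticulum stress genes (bottom). Irradiated livers are red and control livers blue, and in the top row 1 of the 3 irradiated livers of month 9 lies well below the other two.

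Promoter sequences were read for the letters of 2 known elements, in the 250 bases before each RefSeq gene start (GRCm38.p6), on both strands. The heat shock element was searched as GAA, TTC and GAA with 2 bases between neighbours, and the endoplasmic reticulum stress element as CCAAT and CCACG with 9 bases between them. These are fixed letters and miss degenerate copies. The heat shock letters stood in 55 of 12735 tested genes with a promoter (0.432%). Among the heat shock list they stood in 2 of 11 genes, Hspd1 and Hspe1, which share 1 promoter in opposite directions, and so share the match. They stood in 3 of 443 promoters of genes called higher (0.677%) and in 0 of 189 of genes called lower, near the share over all genes. The sequence is shown because both genes were called higher; capitals mark the bases of 2 overlapping matches, 1 on each strand.
Hspe1, chr1:55088055-55088084, plus strand: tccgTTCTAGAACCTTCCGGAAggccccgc

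The endoplasmic reticulum stress letters stood in 23 of the 12735 promoters (0.181%). They stood in 7 of 14 promoters of the endoplasmic reticulum chaperone list (50%) and in 2 of 12 of the sensor and degradation list (16.7%). Of 443 promoters of genes called higher, 6 held them: those of Hspa5, Hsp90b1, Dnajc3, Creld2, Syvn1 and the glycosyltransferase gene Alg12. None of 189 promoters of genes called lower did. Calr, Canx, Pdia6 and Derl3 of these lists held the letters too, and their changes were not called. Only the called list members are shown, with the match in capitals. In Creld2 it lies on the opposite strand to the gene. A match is a description of the letters and not of a bound site.
Hspa5, chr2:34772019-34772048, plus strand: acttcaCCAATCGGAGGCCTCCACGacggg
Creld2, chr15:88819479-88819578, plus strand: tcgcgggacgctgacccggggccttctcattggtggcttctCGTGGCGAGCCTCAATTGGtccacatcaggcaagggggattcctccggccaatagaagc
Hsp90b1, chr10:86705595-86705694, minus strand: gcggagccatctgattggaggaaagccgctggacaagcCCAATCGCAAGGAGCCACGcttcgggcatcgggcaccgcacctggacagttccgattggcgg
Dnajc3, chr14:118937786-118937885, plus strand: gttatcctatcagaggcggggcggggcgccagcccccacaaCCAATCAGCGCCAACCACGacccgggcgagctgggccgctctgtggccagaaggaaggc
Syvn1, chr19:6046476-6046575, plus strand: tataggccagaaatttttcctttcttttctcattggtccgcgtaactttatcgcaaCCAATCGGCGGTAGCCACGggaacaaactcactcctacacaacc

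Endoplasmic reticulum chaperones and folding factors had a higher 56Fe effect at month 9 for 8 of 17 measured members and a lower one for none. Of all genes tested 2.78% were called higher and 1.31% lower. All 17 changes were positive, with a median of 1.16 against -0.05 over all genes. The median effect of the list was 0.24 at month 9 and -0.91 at month 4. From month 4 to month 9 the list median moved by 0.41 in irradiated and by -0.60 in control livers. No member was called at month 9 (edgeR), and 13 were called lower at month 4 (1.77% of all genes were). The arms did not overlap for 4 of the 17 at month 9 and for 16 of the 17 at month 4, against 18.2% and 30.2% of all genes. The 3 control livers of month 4 lay above the other 9 libraries for 6 of the 17, against 1.37% of all genes.

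Hspa5 encodes BiP, the Hsp70 of the endoplasmic reticulum (chromosome 2, 34771970 to 34777547, plus strand). It had 2154, 1683 and 2319 CPM in irradiated and 1492, 1207 and 1288 CPM in control livers at month 9, and 778, 904 and 1116 CPM in irradiated and 2470, 2173 and 4270 CPM in control livers at month 4. Irradiated livers lay above all controls at month 9 and below all controls at month 4. The group means were 2052 ± 330 and 1329 ± 147 CPM at month 9, irradiated and control, and 933 ± 171 and 2971 ± 1135 CPM at month 4, irradiated and control (SD, n = 3). The change was 2.30 ± 0.31, a 4.92-fold difference (adjusted p = 0.00039). The effect was called at month 4 (-1.67 ± 0.22, adjusted p = 0.000587) and not at month 9 (0.63 ± 0.22, adjusted p = 0.13).

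Creld2 encodes a secreted protein of the endoplasmic reticulum that is induced by stress there. It had 85.9, 80.7 and 116 CPM in irradiated and 84.5, 54.6 and 50.6 CPM in control livers at month 9, and 26.1, 32.1 and 51.5 CPM in irradiated and 220, 140 and 479 CPM in control livers at month 4. The arms overlapped at month 9, while at month 4 every irradiated liver lay well below every control. The change was 3.51 ± 0.60, an 11.4-fold difference (adjusted p = 0.00374).

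Manf encodes a small factor of the endoplasmic reticulum that is secreted under stress. It had 96.8, 94.6 and 120 CPM in irradiated and 89.3, 71.5 and 79.5 CPM in control livers at month 9, and 42.8, 45.8 and 69.4 CPM in irradiated and 152, 127 and 300 CPM in control livers at month 4. The arms were close but apart at month 9 and far apart at month 4. The change was 2.24 ± 0.39 (adjusted p = 0.00332). The annotated span of Manf overlaps Dcaf1 and Rbm15b, so its counts could include or lose reads of these neighbours.

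The other called members were Dnajb9 at 2.10 (adjusted p = 0.00681) and Dnajb11 at 1.23 (0.0153), both J-domain partners of BiP, Hsp90b1, the Hsp90 of the compartment, at 1.46 (0.0163), the oxidase Ero1lb at 1.16 (0.0342), and the co-chaperone Dnajc3 at 1.11 (0.0461). Those not called included Hyou1 at 1.17 (0.0569), Sdf2l1 at 1.65 (0.0754), the disulphide isomerases Pdia6 at 0.76 (0.0854) and Pdia4 at 0.83 (0.135), and the lectin chaperones Calr at 0.76 (0.0994) and Canx at 0.48 (0.278). Hyou1, Sdf2l1, Pdia6, Pdia4 and Calr were called lower at month 4. Over the 24 alternatives the count of members called higher lay between 4 and 13 and the list median between 0.79 and 1.33. It was 4 without replicate 3 of the irradiated livers at month 9, replicate 2 of the control livers at month 9, replicate 1 or 2 of the irradiated livers at month 4, or replicate 3 of the control livers at month 4. Hspa5, Creld2 and Manf were called in all 24.

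Sensors of the unfolded protein response and genes of endoplasmic reticulum degradation gave 5 higher and no lower members of 14 measured, with a median change of 0.77. Of all genes tested 2.78% were called higher, and their median change was -0.05. From month 4 to month 9 the list median moved by 0.30 in irradiated and by -0.36 in control livers. Eif2ak3, the sensor kinase PERK, had 42.2, 30.7 and 51.6 CPM in irradiated and 34.2, 26.9 and 33.9 CPM in control livers at month 9, and 23.9, 21.3 and 24.5 CPM in irradiated and 46.2, 35.1 and 42.3 CPM in control livers at month 4. Its change was 1.22 ± 0.24 (adjusted p = 0.00686), with overlapping arms at month 9 and separate arms at month 4. Herpud1, a membrane component of the degradation complex, had 581, 696 and 926 CPM in irradiated and 803, 504 and 684 CPM in control livers at month 9, and 500, 487 and 492 CPM in irradiated and 1363, 743 and 1426 CPM in control livers at month 4. Its change was 1.40 ± 0.30 (adjusted p = 0.0104), and again the arms overlapped at month 9 only.

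Syvn1, the ubiquitin ligase HRD1, changed by 1.93 ± 0.46 (adjusted p = 0.0208), its adaptor Sel1l by 0.89 (0.0375), and the transcription factor Xbp1 by 1.84 (0.0344). Syvn1 overlaps Mrpl49 on the opposite strand, and its call was lost without 7 of the 12 libraries taken singly (highest adjusted p = 0.0788). The sensor Ern1 was called higher at month 9 (1.16, adjusted p = 0.0211) but had a change of 1.07 that was not called (0.0858). The third sensor, Atf6, had a change of 0.35 (0.367). Derl3 had 0.691, 2.41 and 1.99 CPM in irradiated and 3.48, 1.72 and 1.76 CPM in control livers at month 9, and 0.891, 1.34 and 1.61 CPM in irradiated and 10.3, 4.7 and 21.3 CPM in control livers at month 4. Its change of 2.78 was not called (0.12). Over the alternatives 2 to 7 members of the list were called higher. It was 2 without replicate 3 of the irradiated livers at month 9, replicate 2 or 3 of the control livers at month 9, replicate 1 or 2 of the irradiated livers at month 4, or replicate 3 of the control livers at month 4. The integrated stress response list, the targets downstream of PERK, had 1 called member of 15, Sesn2, which was lower, and a median change of 0.00.

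**Figure D2:**
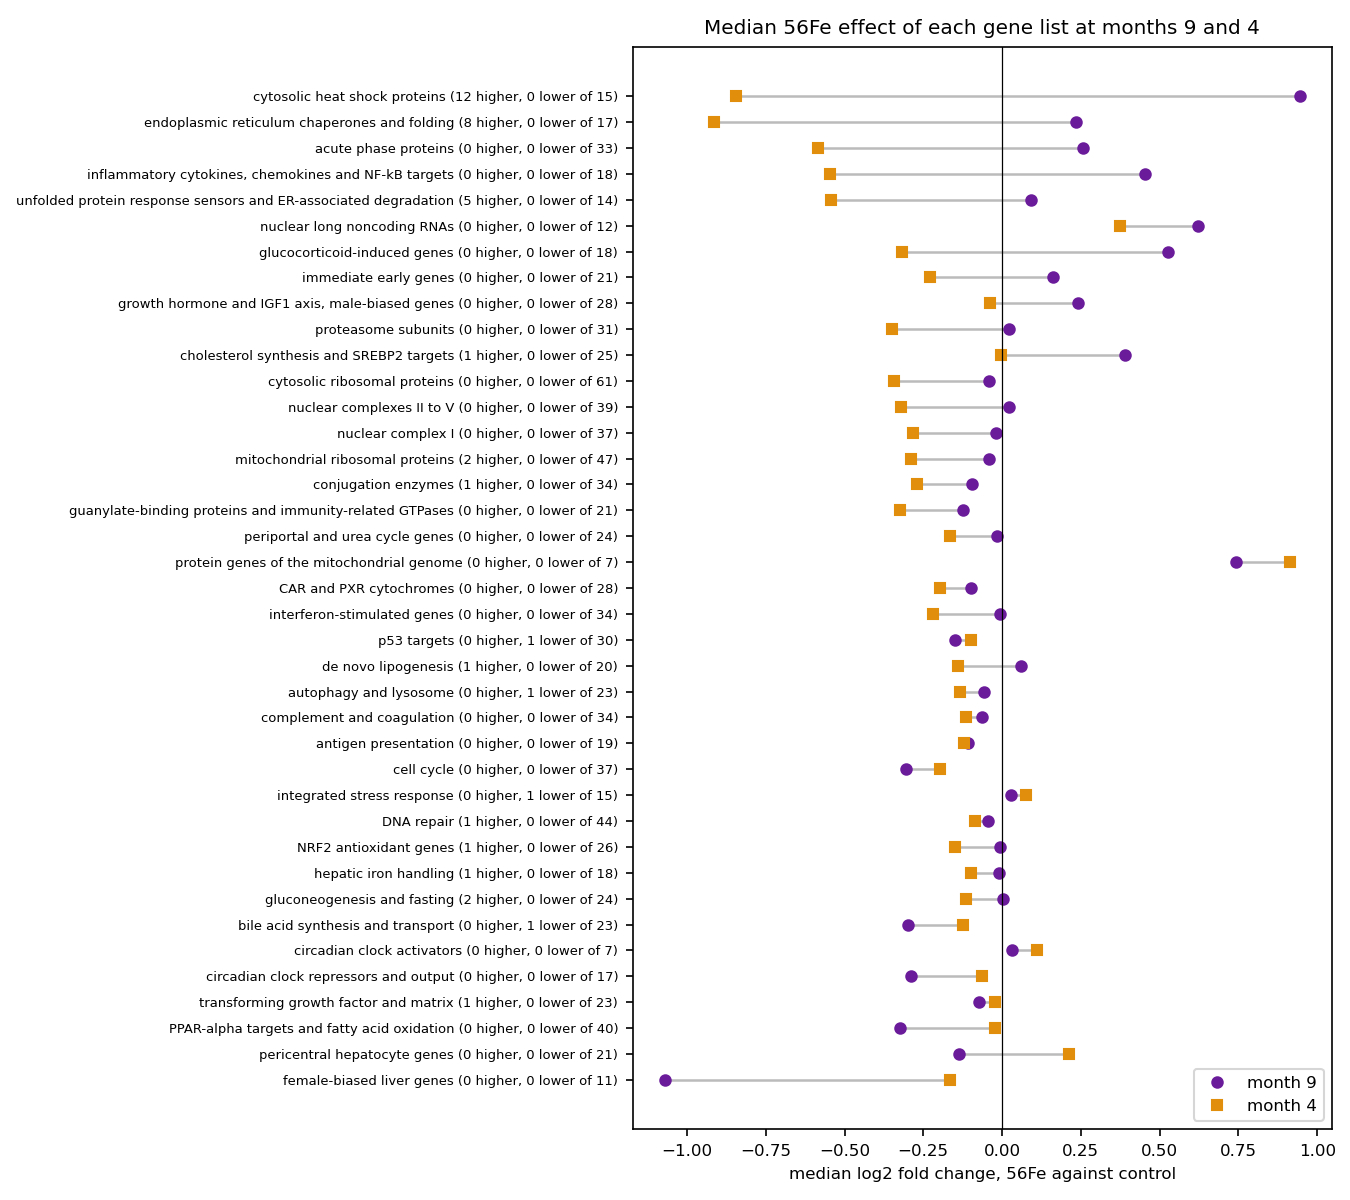
Each row is a gene list with its median 56Fe effect at month 9 (purple circle) and at month 4 (orange square), as log2 fold change of irradiated over control livers. The heat shock and endoplasmic reticulum lists run from below 0 at month 4 to above 0 at month 9, and the numbers give members called in the change of the effect.

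Of the 39 lists other than marker lists, 16 held a called gene, the 3 chaperone and unfolded protein lists among them, and 11 of the 16 held 1. Hepatic iron handling held Tfrc, the transferrin receptor that takes up iron. Tfrc had 104, 107 and 92.3 CPM in irradiated and 45.9, 77.3 and 47.6 CPM in control livers at month 9, and 42.2, 35.9 and 59.4 CPM in irradiated and 64.7, 104 and 88 CPM in control livers at month 4. Its 3 irradiated livers lay close together above the controls at month 9 and lay below the controls at month 4. The change was 1.73 ± 0.29 (adjusted p = 0.00259), and the effect was called in both months, at 0.82 (0.0406) and -0.90 (0.0183). The other 17 measured iron genes were not called, and the list median was -0.05.

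Lpin1, a phosphatidate phosphatase induced by fasting, had 960, 490 and 509 CPM in irradiated and 340, 142 and 210 CPM in control livers at month 9, and 182, 369 and 290 CPM in irradiated and 648, 271 and 497 CPM in control livers at month 4. Its change was 2.25 ± 0.60 (adjusted p = 0.0377; with the replicate block 0.0927). Slc37a4, the transporter that brings glucose 6-phosphate to glucose 6-phosphatase, changed by 1.01 ± 0.26 (0.0261). Lpin1 and Slc37a4 were the called members of the 24 gluconeogenesis and fasting genes (8.33%, against 2.78% of all genes called higher). The median change of that list was -0.06. The calls were lost without 9 and 7 of the 12 libraries taken singly.

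Single members were called in further lists, and 2 in the last of them. The share of members called higher was 2.27% to 4.35% in the lists of this paragraph, near the 2.78% of all genes. Tgfbr1, a receptor for transforming growth factor beta, had 132, 59.8 and 107 CPM in irradiated and 55.6, 60.8 and 57.9 CPM in control livers at month 9, and 51.1, 49.3 and 50.2 CPM in irradiated and 67.2, 64.7 and 68.8 CPM in control livers at month 4; its change was 1.19 ± 0.25 (adjusted p = 0.00901). Srxn1, which repairs oxidised peroxiredoxins, had 496, 56.1 and 164 CPM in irradiated and 45.1, 69.5 and 52.4 CPM in control livers at month 9, and 44, 40.6 and 41.1 CPM in irradiated and 39.3, 49.5 and 52.5 CPM in control livers at month 4. Replicates 1 and 3 of the irradiated livers at month 9 were high and replicate 2 lay among the controls. The Srxn1 change was 2.27 ± 0.61 (0.0405), which was lost without 11 of the 12 libraries taken singly and was 1.77 with the replicate block (0.223). The sulphotransferase Sult1d1 changed by 1.29 ± 0.35 (0.0358, lost without 10 libraries taken singly), and the base excision repair polymerase Polb by 0.87 ± 0.25 (0.0495, lost without 10, and 0.0703 with the block). The mitochondrial ribosomal proteins Mrps31 at 0.62 and Mrps22 at 0.66 were called of 47 in their list (0.0332 and 0.0365), and each was lost without 9 libraries taken singly.

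Among the 10 named genes with the largest higher changes, 6 were in no list: Bhlha15, Tes, Ppl, Dhrs9, Zfp9 and Slc10a2. Ppl, or periplakin, links the cytoskeleton to cell junctions. It had 314, 18.6 and 106 CPM in irradiated and 14.6, 15.7 and 6.9 CPM in control livers at month 9, and 7.4, 15.3 and 12.2 CPM in irradiated and 9.32, 16.2 and 15.8 CPM in control livers at month 4. Its change was 3.79 ± 0.90 (adjusted p = 0.0225; with the replicate block 0.0925). Slc10a2, the apical sodium-dependent bile acid transporter, had 341, 77.1 and 119 CPM in irradiated and 33.7, 49.6 and 35.2 CPM in control livers at month 9, and 15.9, 22.3 and 27.2 CPM in irradiated and 29.3, 55.5 and 42.2 CPM in control livers at month 4. Its change was 3.14 ± 0.76 (0.0251; with the replicate block 0.0632).

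Tes, a focal adhesion protein, had 30.4, 1.88 and 6.09 CPM in irradiated and 1.52, 1.78 and 1.56 CPM in control livers at month 9, and 1.99, 1.14 and 1.68 CPM in irradiated and 2.9, 2.82 and 4.37 CPM in control livers at month 4. Its change was 4.02 ± 0.98 (adjusted p = 0.0244). Ppl, Tes, Slc10a2 and Srxn1 were each highest in replicate 1 of the irradiated livers at month 9. The same library held 133 CPM of summed cholangiocyte markers, against 30.5 and 61.1 CPM in replicates 2 and 3 of its group; the part of these cells in the results was not tested.

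Dhrs9, a short-chain dehydrogenase that acts on retinol, had 38.4, 4.66 and 50.7 CPM in irradiated and 3.82, 2.76 and 3.77 CPM in control livers at month 9, and 5.83, 2.68 and 3.15 CPM in irradiated and 3.74, 4.7 and 5.57 CPM in control livers at month 4. The change was 3.44 ± 0.85 (adjusted p = 0.0265) and came with separate arms at month 9 only. Bhlha15, a transcription factor of secretory cells, had at most 3.26 CPM in any of the 12 libraries and changed by 4.07 ± 0.97 (0.0188). Zfp9, a zinc finger gene, had 2.94, 2.63 and 15.4 CPM in irradiated and 3.37, 2.99 and 2.02 CPM in control livers at month 9, and 2.67, 1.61 and 2.48 CPM in irradiated and 10.9, 5.37 and 13.1 CPM in control livers at month 4. Its change was 3.44 ± 0.84 (0.0251; with the replicate block 0.0815). The calls of these 6 genes were lost without 4 (Bhlha15) to 9 (Zfp9) of the 12 libraries taken singly, and the highest adjusted p was 0.214, for Bhlha15.

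**Figure D3:**
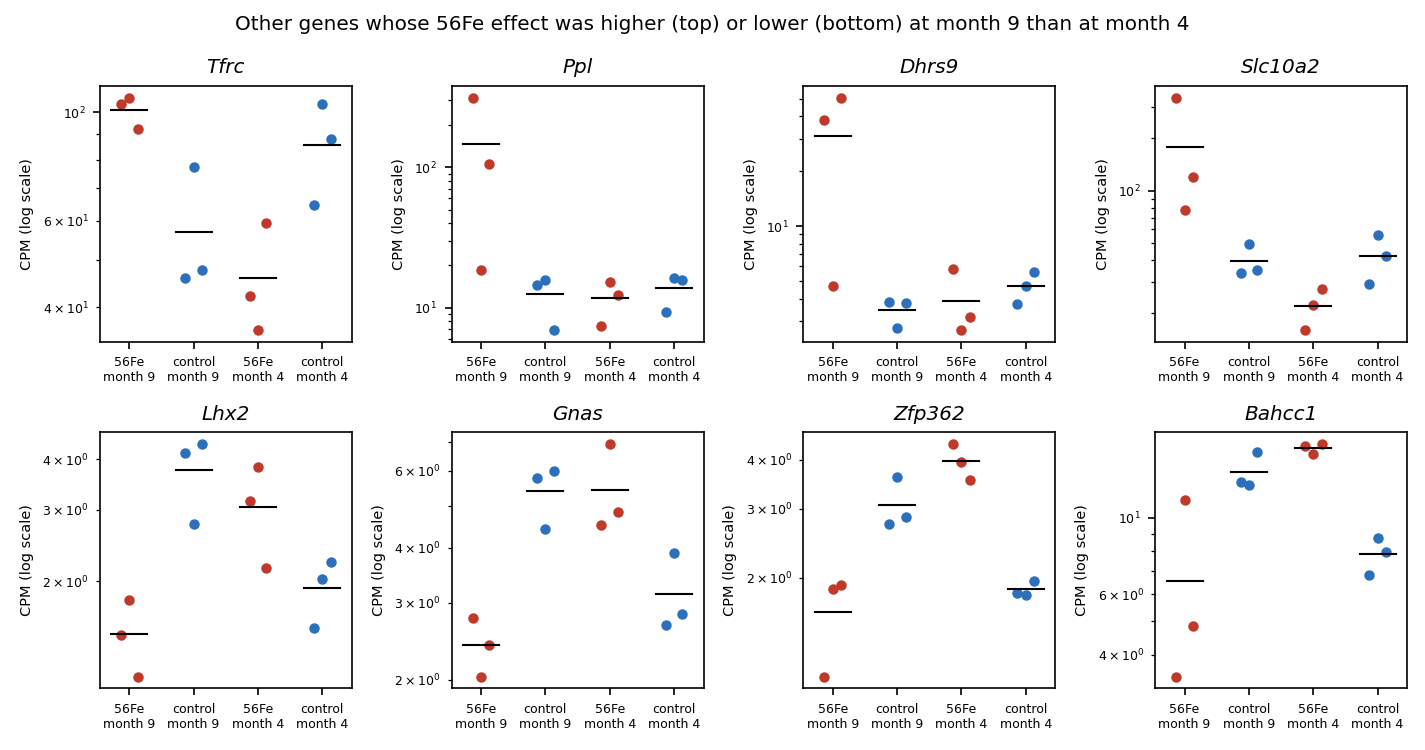
Points are libraries and bars are group means, in CPM on log axes, for 4 genes with a higher 56Fe effect at month 9 (top) and 4 with a lower one (bottom). In the top row irradiated livers of month 9 hold the highest values, and in the bottom row they hold the lowest values, with 1 of the 3 irradiated livers of month 9 near the controls for Ppl, Dhrs9 and Bahcc1.

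The 257 genes with a lower 56Fe effect at month 9 had a median level of 16.3 CPM, against 4.78 CPM over all genes tested, and several of the named ones were lower than that. Zfp362, a zinc finger gene, had 1.12, 1.88 and 1.92 CPM in irradiated and 2.75, 3.62 and 2.86 CPM in control livers at month 9, and 4.39, 3.96 and 3.56 CPM in irradiated and 1.83, 1.81 and 1.97 CPM in control livers at month 4. The arms were apart at both months and in opposite order. The change was -1.97 ± 0.33 (adjusted p = 0.00259), and the effect was called at month 9 (-0.89, 0.0461) and at month 4 (1.08, 0.0101).

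Lhx2, a LIM homeodomain transcription factor, had 1.47, 1.8 and 1.16 CPM in irradiated and 4.15, 2.76 and 4.36 CPM in control livers at month 9, and 3.15, 3.82 and 2.15 CPM in irradiated and 1.53, 2.02 and 2.23 CPM in control livers at month 4. The change was -2.00 ± 0.39 (adjusted p = 0.00583). Gnas, which encodes the stimulatory G protein alpha subunit, had 2.76, 2.03 and 2.4 CPM in irradiated and 5.78, 4.42 and 5.99 CPM in control livers at month 9, and 4.52, 6.91 and 4.83 CPM in irradiated and 2.67, 3.9 and 2.83 CPM in control livers at month 4. Its change was -1.95 ± 0.39 (0.00701). Gnas shares its locus with the antisense Nespas and other transcripts, so its counts are uncertain. Zfp362, Lhx2 and Gnas were called in all 24 alternatives.

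Gdf15, a secreted factor induced by cell stress and a p53 target, had the largest lower change among the named genes. It had 0.95, 8.94 and 4.59 CPM in irradiated and 10.3, 18.9 and 38.9 CPM in control livers at month 9, and 15.1, 7.58 and 10.5 CPM in irradiated and 9.55, 6.92 and 5.91 CPM in control livers at month 4. Every irradiated liver lay below every control at month 9, and the arms overlapped at month 4. The change was -2.78 ± 0.77 (adjusted p = 0.0453), lost without 10 of the 12 libraries taken singly, where it was -3.53 to -2.14.

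Bahcc1, a chromatin protein with a BAH domain, had 3.45, 11.3 and 4.86 CPM in irradiated and 12.7, 12.5 and 15.6 CPM in control livers at month 9, and 16.2, 15.3 and 16.4 CPM in irradiated and 6.8, 8.73 and 7.97 CPM in control livers at month 4. Its change was -2.07 ± 0.46 (adjusted p = 0.0137), lost without replicate 3 of the irradiated livers at month 9 (0.0518). Mn1, a transcriptional coregulator, had 11.4, 39.1 and 24.6 CPM in irradiated and 54.4, 43.8 and 63.2 CPM in control livers at month 9, and 72.3, 66.7 and 57.6 CPM in irradiated and 35.4, 41.5 and 32.8 CPM in control livers at month 4. Its change was -1.94 ± 0.46 (0.0222; with the replicate block 0.0728). In both genes replicate 2 of the irradiated livers at month 9 was the nearest to the controls, and the arms were apart at both months.

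The other named genes with lower changes were Pkdrej, a polycystin family gene, at -2.35, the transcription factor Rfx4 at -2.11, the opsin gene Rgr at -2.06 and the semaphorin Sema6c at -1.88, with adjusted p of 0.014 to 0.0456. All of these stayed under 8 CPM in the 12 libraries. Rgr was not called with the replicate block (0.0566). Calls were lost without 8 libraries taken singly for Pkdrej and Mn1, 10 for Rfx4 and Rgr, and 1 for Sema6c, namely replicate 1 of the irradiated livers at month 9 (0.0511).

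Single lower members came from 3 other lists, and 1.31% of all genes were called lower. Sesn2, a sestrin induced by stress, had 5.7, 9.55 and 7.74 CPM in irradiated and 12.7, 12.7 and 14.7 CPM in control livers at month 9, and 12.8, 9.86 and 10.5 CPM in irradiated and 10.2, 7.66 and 7.8 CPM in control livers at month 4, and changed by -1.17 ± 0.29 (adjusted p = 0.0224). Tfeb, a transcription factor of lysosomal genes, changed by -0.93 ± 0.22 (0.0163), and was the only called gene of 23 in the autophagy and lysosome list. Abcg8, which exports sterols to bile with Abcg5, changed by -1.01 ± 0.30 (0.0492; with the replicate block 0.106); it overlaps Abcg5 on the opposite strand. Calls were lost without 6, 5 and 9 of the 12 libraries taken singly.

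Calls in the lists that describe radiation damage were near the share over all genes, 4.08%. Of 30 members of the p53 target list, Gdf15 was the only one called, and the list median was 0.11. Sesn2, also called lower, was counted in the integrated stress response list and not in this one. Cdkn1a, the cell cycle inhibitor p21, had 8.03, 4.13 and 7.87 CPM in irradiated and 2.08, 2.41 and 3.64 CPM in control livers at month 9, and 1.92, 1.94 and 1.21 CPM in irradiated and 1.76, 0.873 and 2.31 CPM in control livers at month 4. All irradiated livers were above the controls at month 9, but the change of 1.24 ± 0.80 was not called (adjusted p = 0.429). Mdm2 (0.24 ± 0.17, 0.493), Phlda3 (-1.16 ± 0.71, 0.4) and Eda2r (-0.63 ± 0.59, 0.612) were not called either. Of 44 DNA repair genes Polb was the only one called, and of 37 cell cycle genes none was; both list medians were 0.00.

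No member was called in 23 of the 39 lists, and several of these had medians away from 0. Acute phase proteins (33 measured) had a median change of 0.94, with an effect of 0.26 at month 9 and -0.59 at month 4. The levels of such genes differ widely between livers of a group: Saa1 changed by 3.83 ± 2.69 and was not called (adjusted p = 0.48). Inflammatory cytokine and NF-kB genes (18 measured) had a median of 0.87, glucocorticoid-induced genes (18) 0.65, immediate early genes (21) 0.56, and female-biased liver genes (11) -1.17. Over the 24 alternatives the female-biased median ran from -2.275 to 0.667, so its sign turned. The acute phase median ran from 0.237 to 1.165, and that of cytosolic ribosomal proteins from 0.011 to 0.493. Cytosolic ribosomal proteins (61) had a median of 0.31, proteasome subunits (31) 0.35 and complex I genes (37) 0.27, each with an effect near 0 at month 9 and of -0.34, -0.35 and -0.28 at month 4. PPAR-alpha targets (40) had a median of -0.28. Clock activators (7) and clock repressors and outputs (17) had medians of -0.08 and -0.12.

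The chaperone lists were also read at the other months of the series. The median effect of the endoplasmic reticulum chaperones at months 1, 2, 4, 9 and 12 was 0.54, -0.51, -0.91, 0.24 and 0.25. That of the heat shock list was 0.04, -0.55, -0.84, 0.95 and 0.06 in the same order. Hspa5 was called lower at month 2 (-0.93, adjusted p = 0.019) and at month 4, and had an effect of 0.05 at month 12 (0.951). Hspa1b had 30.6, 8.17 and 7.32 CPM in irradiated and 9.5, 16.4 and 13.4 CPM in control livers at month 12. At month 12 no gene at all was called with edgeR (2648 with an unadjusted p under 0.05), and all libraries of months 1 and 2 held more Gm26917 than the 12 libraries described here.

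**Figure D4:**
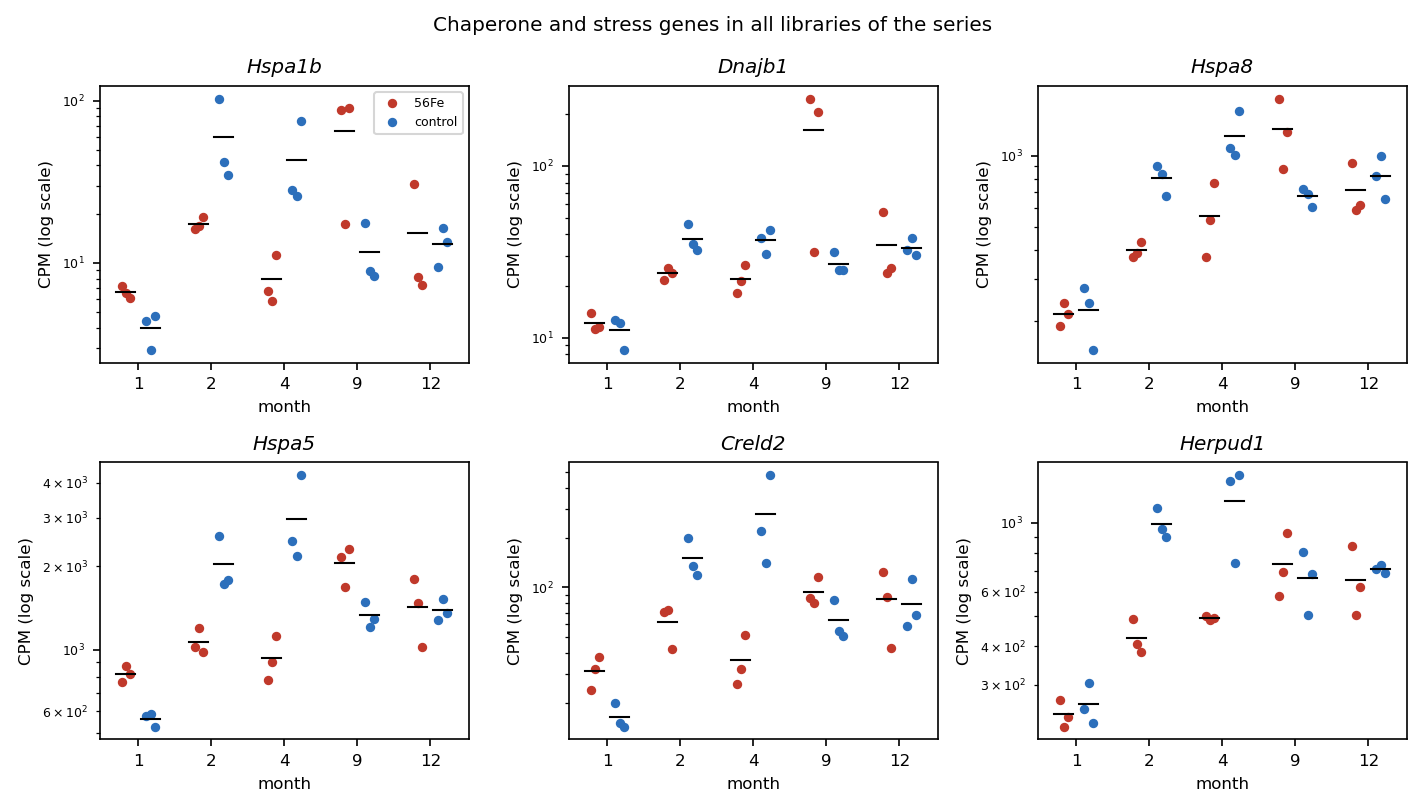
Points are the 30 libraries and bars are group means, in CPM on log axes, by month after irradiation, with irradiated livers in red and control livers in blue. Irradiated livers lie below the controls at months 2 and 4 for these genes and above or among them at month 9.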

How the data were processed

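Ribosomal RNA was removed from total liver RNA, and TruSeq libraries were read as 50-base pairs on an Illumina HiSeq instrument, per the labels' protocols. The authors deposited a table of raw gene counts for all 30 libraries. STAR 2.5.3a made the alignments, per the submitters' processing notes. The strand setting of the counts is not given in the sources used here. Gene symbols came from Gencode M21, which matched 51633 of 51826 identifiers and left 193 unmatched.

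The counts were fitted with edgeR 4.0.16 (R 4.3.3) over all 30 libraries, with 1 coefficient for each of the 10 groups, TMM factors, a minimum count of 10 and total of 15, and robust quasi-likelihood tests. The change of the effect was a contrast of 4 of these groups. Totals of the 12 libraries were 13359559 to 20215995 counts. Whether replicates share a litter or day is not stated. The p-values measure the spread between libraries within groups, estimated over all 10 groups together. Among the 12 libraries, replicates differed most in irradiated livers at month 9, with a chi-square per gene of 43.2 to 85.5 between pairs. It was 9.49 to 31.6 in control livers at month 9. At month 4 it was 10.6 to 13.3 in irradiated and 17.6 to 24.1 in control livers. The fit gives all groups the same spread per gene.

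The members and lists were chosen with earlier results of these data known. Named genes were the 10 largest called changes in each direction with at least 1 CPM and separate arms in at least 1 month, leaving out predicted genes, pseudogenes and small RNAs, the up to 3 called members of each list with the smallest adjusted p, and Cdkn1a, Mdm2, Phlda3 and Eda2r. Other list members given with values lie outside it, and were picked once their values were known. A gene that the rule names is not reported here.

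Same-numbered replicates were checked for pairing within a month. The correlation of their deviations from the group means was 0.225 to 0.393 over the 5000 most abundant genes, above 0.1 in 6 of 6 pairs, and -0.0109 to 0.198 over all 19685 genes, above 0.1 in 2 of 6. The answer depends on the gene set. The main fit held no term for the replicate number, so its p-values treat the livers as unpaired. The replicate block, a fit with terms for the replicate number within each month, is given as an alternative.

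The contrast was tested on simulated counts for 18326 genes, where 35% of 100 genes changed by 2-fold and 82% of 100 changed by 4-fold were recovered, with 6 false calls among 123. Alternatives used DESeq2 1.42.0, limma 3.58.1 and sva 3.50.0. Promoters came from RefSeq on GRCm38.p6 and were cut to 30 bases where a longer window overlapped an annotated exon.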

Additional observations from a re-analysis of the deposited data

Results flagged for a closer look

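The 56Fe effect differed between months 9 and 4 by a test of the difference itself, the contrast of the effects in edgeR's quasi-likelihood fit, for 804 genes at an adjusted p under 0.05. The 39 named genes among them are given here with their log2 change, month 9 minus month 4.

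The heat shock genes were Hspa1b (4.91), Hsph1 (3.38), Dnajb1 (3.33), Dnaja1 (2.39), Hspa8 (2.07). The endoplasmic reticulum genes were Creld2 (3.51), Hspa5 (2.30), Manf (2.24), Syvn1 (1.93), Herpud1 (1.40), Eif2ak3 (1.22).

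The other genes with a higher effect at month 9 were Bhlha15 (4.07), Tes (4.02), Ppl (3.79), Dhrs9 (3.44), Zfp9 (3.44), Slc10a2 (3.14), Srxn1 (2.27), Lpin1 (2.25), Tfrc (1.73), Sult1d1 (1.29), Tgfbr1 (1.19), Slc37a4 (1.01), Polb (0.87), Mrps22 (0.66), Mrps31 (0.62).

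The genes with a lower effect at month 9 were Gdf15 (-2.78), Pkdrej (-2.35), Rfx4 (-2.11), Bahcc1 (-2.07), Rgr (-2.06), Lhx2 (-2.00), Zfp362 (-1.97), Gnas (-1.95), Mn1 (-1.94), Sema6c (-1.88), Sesn2 (-1.17), Abcg8 (-1.01), Tfeb (-0.93).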

How the results depend on the processing

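The number of genes with a changed 56Fe effect, 804, was within 1.5 times of that with RLE factors (970), upper quartile factors (836), a stricter filter (1037) and the replicate block (857, of which 640 were among the 804). It was 442 with no low-count filter, 1578 with DESeq2, 1662 with limma voom and sample weights, 535 with the 12 libraries alone, 499 with 18 libraries, 344 with 1 surrogate variable and 302 with the Gm26917 covariate. Leaving out 1 library gave 253 to 1762. Calls at month 4 (708) were 393 with no filter, 1269 with DESeq2, 2003 with voom, 362 with 18 libraries and 1 with the Gm26917 covariate, where 1808 had an unadjusted p under 0.05; leaving out 1 library gave 91 to 1010. Calls at month 9 (326) were 493 with the stricter filter, 901 with DESeq2, 838 with voom, 10 with the 12 libraries alone, 18 with 18 libraries and 525 with the replicate block. Leaving out 1 library gave 0 to 1439 at month 9, the 0 without replicate 1 of the irradiated livers at month 9 (edgeR, 2172 with an unadjusted p under 0.05). Without replicate 2 of the irradiated livers at month 9 and replicate 3 of the control livers at month 4, chosen after seeing the data, the counts were 1239 for the change, 199 at month 4 and 1433 at month 9. The Gm26917 covariate was chosen with earlier results known. The cause of these differences was not tested.

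No named gene changed sign in any of the 24 alternatives. With the replicate block 34 of the 43 named genes given kept their side of the threshold and 9 did not: Srxn1, Mn1, Zfp9, Slc10a2, Polb, Lpin1, Rgr, Ppl and Abcg8. The 34 include Cdkn1a, Mdm2, Phlda3 and Eda2r, which were called in neither fit. All 9 lost calls were among the 39 named genes that were called. With 3 livers a group, the simulated counts recovered 35% of 2-fold changes, so smaller changes were often not detectable.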

Other observations

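Chordc1, a co-chaperone of Hsp90, was outside the naming rule and was chosen after its values were seen, for its small p. It had 113, 97 and 117 CPM in irradiated and 61.7, 63.6 and 63.2 CPM in control livers at month 9, and 45.2, 50.1 and 70 CPM in irradiated and 96.7, 92.4 and 140 CPM in control livers at month 4. The arms were apart at both months, in opposite order, and the change was 1.79 ± 0.23 (edgeR adjusted p = 0.00039).

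Groups of genes that share a symbol were counted after values had been seen, 11 groups in all, so their counts carry no test. Nucleolar and ribosome assembly genes had 11 of 41 members called higher and none lower, with a median change of 0.62. Nol8 changed by 1.76 (adjusted p = 0.00259) and Tsr1 by 1.61 (0.00293). Genes with Eif symbols had 11 of 53 called higher, with a median of 0.36. They include initiation factors and also kinases of them such as Eif2ak3 (PERK), which is 1 of the 11 and is counted in the unfolded protein list as well. Eif4e, which binds the mRNA cap, changed by 1.24 (0.000965). Serine and arginine rich splicing factors had 4 of 10 called higher, among them Srsf7 at 1.13 (0.00259). Over all genes tested 2.78% were called higher.

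Zinc finger genes with Zfp symbols had 33 higher and 10 lower members of 354. Histone modifying enzymes with Kdm, Kmt and Hdac symbols had 1 higher and 4 lower of 36, and Kdm6b, a histone demethylase, changed by -1.35 (0.00259). J-domain genes had 7 higher of 42, genes with Hsp symbols 13 higher and 1 lower (Hspb6, -1.49, 0.0151) of 24, Sec genes 4 higher of 27, Tmed and Cop genes 1 of 18, and Zbtb genes 5 higher and 2 lower of 40. None of 4 Pdia genes was called. Over all genes tested 2.78% were called higher and 1.31% lower. All 11 symbol groups hold protein coding genes only, and of 14910 such genes tested 536 were called higher and 235 lower.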
